A study of Mus musculus with 3 samples.

Results

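Macrophages that resemble resident tissue macrophages were taken from LLC1 tumours growing in mouse tibia and described across 3 droplet 3' single-cell libraries. Their defining RNAs are Mrc1 (the mannose receptor CD206), Folr2 (folate receptor beta), Cbr2 (a carbonyl reductase) and Ccl8 (a CC chemokine), on top of C1qa, C1qb and C1qc (the chains of complement C1q). Cells with at least 300 genes and at most 15% of UMIs from mitochondrially encoded genes were kept. A member had at least 20 C1qa+C1qb+C1qc UMIs per 10000, at least 2 Mrc1 UMIs, at least 1 UMI of Folr2, Cbr2 or Ccl8, and at most 1 UMI of Mki67+Top2a. Members also had under 10 UMIs of Rsad2+Ifit2+Cxcl10 per 10000 and at most 5 UMIs of Krt8+Krt18, limits that leave out dividing cells, cells with a strong interferon response and doublets with carcinoma cells. The rule found 1655 members among 28522 kept cells, or 5.80%. All of these values chose the cells and are given as description.

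LLC1 is a mouse Lewis lung carcinoma line. As the labels' protocols give it, 1000000 carcinoma cells, in a volume of 10 µL, went into the marrow cavity of the right tibia of 8-week-old hosts, and the tumours were taken at day 14 and sorted for live cells. The hosts were labelled WT, DMP1-Cre Mfn2-/- or DMP1-Cre Rhot1-/-, and are called WT, Mfn2 and Rhot1 here. Mfn2 encodes mitofusin 2, a mitochondrial fusion GTPase, and Rhot1 encodes Miro1, which couples mitochondria to motor proteins. The Dmp1 promoter drives Cre mainly in osteocytes, so macrophages were not the cells meant to lose either gene, and the control names no Cre. Each genotype is 1 library pooled in equal parts from 3 mice, so no difference between genotypes has a replicate check, no test was made, and every interval in parentheses is a 95% interval of counting error only.

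Macrophages with Mrc1, Folr2 and, in part, Lyve1 are found in many mouse tissues, usually near vessels, and are known for endocytosis, clearance of dying cells, iron handling and secretion of monocyte-attracting chemokines. They are commonly set apart from macrophages recently made from blood monocytes, which keep Ccr2 and Ly6c2 RNA, and from macrophages rich in MHC class II, the molecules that present peptides to CD4 T cells. In tumours the classes grade into each other. RNA from a 3' library gives levels and not origin, and no lineage was traced in these samples.

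The WT, Mfn2 and Rhot1 libraries gave 597, 550 and 508 members with 3764188, 2981710 and 2994345 UMIs in all, and medians of 5971, 5055 and 5595.5 UMIs per cell. Median mitochondrial shares were 0.936%, 1.10% and 1.35%. Members were compared with 246, 248 and 212 other C1q macrophages, cells that met the rest of the rule but failed the Mrc1 limit or the Folr2+Cbr2+Ccl8 limit. Those cells were shallower, with medians of 3387, 3094.5 and 2985 UMIs, and a shallow cell reaches a limit of 1 or 2 UMIs less easily. The pairs of libraries shared 35, 20 and 21 barcodes over all cells and 0 among members. Scrublet marked 6, 4 and 0 members as doublets.

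The cells carried the RNA of macrophages at large and of the named class, with exceptions that touch the word resident. Members held 261.4, 259.6 and 309.2 counts per 1000000 UMIs (CPM) of Adgre1 (F4/80) and 421.3, 411.5 and 447.5 CPM of Csf1r (the receptor for colony-stimulating factor 1) in the WT, Mfn2 and Rhot1 libraries. Lyve1, a hyaluronan receptor of perivascular macrophages, reached 103.1, 98.3 and 123.2 CPM. After thinning each cell to 5000 UMIs, 15.6% of 391 WT members and 20.8% of 284 Mfn2 members had a Lyve1 UMI, so most cells had none. Timd4 (a phosphatidylserine receptor) and Cd209f, which mark long-lived resident macrophages in several mouse tissues, had 0 UMIs in all 3 libraries, which allows levels of up to 0.797, 1.01 and 1.00 CPM from 3 counts. Vsig4, Cd5l and Spic, genes of Kupffer cells and red-pulp macrophages, stayed at or below 4.36 CPM in every library. Members also held Ccr2 RNA, at 127.5, 161.7 and 151.6 CPM, below the other C1q macrophages described later. After thinning, Arg1, the arginase of hypoxic tumour macrophages, was found in 67.3%, 77.5% and 60.3% of WT, Mfn2 and Rhot1 members. That share was above the share in the other C1q macrophages in WT and Mfn2 and below it in Rhot1. The rule requires its own markers, so their presence is no separate check. Several genes of long-lived resident macrophages were at or near 0. The cells are called resident-like by the rule, and their origin was not tested.

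To place the rule genes on the genome, 250 bases before the RefSeq start site are shown for 3 of them, Mrc1, Folr2 and Ccl8. They come from RefSeq on GRCm38.p6, the build that mm10 names. Capitals mark GAGGAA on either strand, the core recognised by PU.1, a factor that macrophages need. Over 32851 promoters of the same length, 23.3% hold GAGGAA.
Mrc1: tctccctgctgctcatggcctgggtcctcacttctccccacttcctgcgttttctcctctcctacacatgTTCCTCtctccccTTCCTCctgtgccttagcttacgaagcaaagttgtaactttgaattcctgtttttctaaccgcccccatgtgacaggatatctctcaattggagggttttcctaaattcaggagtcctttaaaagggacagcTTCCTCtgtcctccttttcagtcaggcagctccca
Folr2: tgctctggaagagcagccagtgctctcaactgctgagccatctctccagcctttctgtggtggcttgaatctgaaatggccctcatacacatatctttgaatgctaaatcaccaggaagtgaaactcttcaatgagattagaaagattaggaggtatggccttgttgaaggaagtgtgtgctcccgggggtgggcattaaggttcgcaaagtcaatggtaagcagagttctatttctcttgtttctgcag
Ccl8: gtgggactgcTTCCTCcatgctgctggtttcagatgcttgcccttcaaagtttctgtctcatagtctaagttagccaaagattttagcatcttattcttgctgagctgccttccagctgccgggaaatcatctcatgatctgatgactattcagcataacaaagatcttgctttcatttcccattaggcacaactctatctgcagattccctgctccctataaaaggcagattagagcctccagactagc
The Mrc1 window, chr2:14229164-14229413 on the plus strand, held 3 matches, at 180, 167 and 35 bases before the start. The Ccl8 window, chr11:82114935-82115184 on the plus strand, held 1 match, 240 bases before the start. The Folr2 window, chr7:101857191-101857440 on the minus strand and the outer of 2 RefSeq starts, held no match, which says only that these letters are not in this window. TGCTGAC, the core of sites for MAF factors, was searched on both strands too and was in none of the 3 windows, against 3.81% of all promoters.

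Among members, C1q was carried most evenly, Mrc1 and Folr2 less so, Cbr2 less again and Ccl8 very unevenly. The rule sets a floor on C1q and on Mrc1 in every member but none on Folr2, Cbr2 or Ccl8 singly. This order is thus partly fixed by the selection. The median C1q level was 116.0, 113.0 and 123.0 UMIs per 10000 in the WT, Mfn2 and Rhot1 libraries, and the tenth of cells with the most C1q held 24.1%, 24.1% and 23.8% of its UMIs. For Mrc1 the medians were 18.4, 19.4 and 22.9 UMIs per 10000. Folr2 was nearly the same in the 3 libraries, at medians of 4.46, 4.73 and 4.58, and so was Cbr2, at 1.90, 2.01 and 1.92. Ccl8 ranged from 0 to 690.0, 430.0 and 791.0 UMIs per 10000, and the tenth of cells with the most Ccl8 held 64.0%, 64.2% and 56.9% of its UMIs. Folr2, Cbr2 and Ccl8 were found together in 45.4%, 39.3% and 48.8% of members, whereas Cbr2 stood alone in 2.01%, 2.55% and 2.17%. In cells with T cell markers, which should lack these RNAs, Folr2 and Cbr2 UMIs were seen in 1.10% and 0.366% of 273 WT cells at a median of 2246 UMIs, but Ccl8 UMIs in 18.3%. A Ccl8 UMI alone therefore places a cell less surely than a Folr2 UMI, and 8.54%, 8.36% and 11.6% of members had passed through Ccl8 alone.

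**Figure D1:**
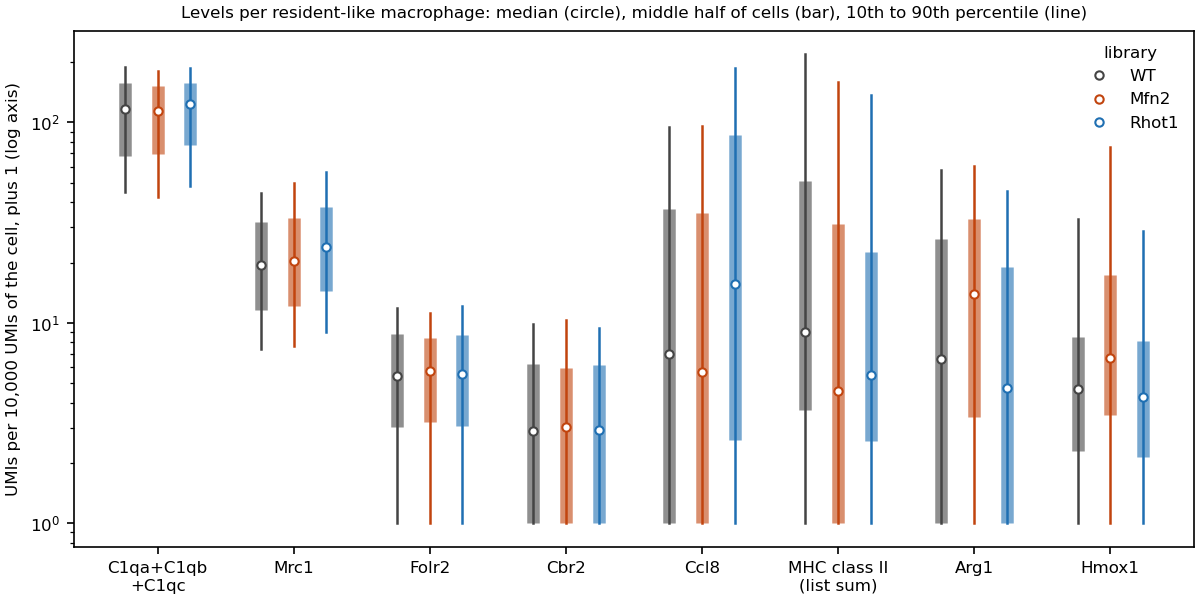
UMIs per 10000 (plus 1, log axis) of the genes of the rule and of 3 other readouts in members of each library; circles are medians, thick bars run from the 25th to the 75th percentile and thin lines from the 10th to the 90th. C1q, Mrc1, Folr2 and Cbr2 lie at nearly the same level in all 3 libraries, whereas Ccl8, MHC class II, Arg1 and Hmox1 spread more widely. The 10th percentile is 0 for the latter and also for Folr2 and Cbr2.

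Cells near the limits were not few. Exactly 2 Mrc1 UMIs were held by 37, 41 and 35 members, and cells that met all other limits with 1 or 0 Mrc1 UMIs numbered 33 and 42 in WT, 40 and 37 in Mfn2, and 28 and 48 in Rhot1. Just 1 UMI of Folr2+Cbr2+Ccl8 was held by 78, 60 and 69 members, beside 83, 99 and 77 cells outside with 0. At the C1q limit, 5, 13 and 10 members lay between 20 and 25 UMIs per 10000, and 11, 10 and 10 cells outside lay between 15 and 20.

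The number of these 3 genes that a cell carried ordered other RNAs that the rule did not use. A resident sum was taken over Lyve1, Gas6, Fcna, Fcgrt and Selenop in cells thinned to 5000 UMIs. All of these genes rank among the 15 highest against the other C1q macrophages below, a contrast drawn by the rule genes. Their order along those genes is thus a description and not a separate check. The sum averaged 5.50 UMIs in WT cells with 1 of the 3 genes, 9.58 with 2 and 14.6 with all 3. The Mfn2 means were 5.27, 8.35 and 14.2 and the Rhot1 means 5.21, 12.1 and 17.5, so each library showed the same order. Means of MHC class II ran the other way, from 48.0 through 30.9 to 23.9 UMIs in WT, from 39.2 through 24.5 to 17.8 in Mfn2 and from 31.2 through 27.2 to 13.5 in Rhot1. The tenth of members with the most MHC class II held 58.6%, 67.4% and 69.7% of its UMIs, so these means rest largely on few cells. Il1b, the inflammatory cytokine IL-1 beta, ran along the same steps from 2.48 to 0.532, from 1.31 to 0.354 and from 2.08 to 0.319 UMIs. Monocyte markers followed the same order, from 3.23 to 1.40, 4.49 to 2.13 and 6.48 to 1.15 UMIs. Hmox1 (haem oxygenase 1) kept no such order, at 9.33, 5.70 and 6.62 UMIs in WT. Across single WT, Mfn2 and Rhot1 members, Ccl8 and the resident sum had Spearman correlations of 0.586, 0.576 and 0.585. Those of Ccl8 and the monocyte markers were -0.378, -0.285 and -0.45. MHC class II had correlations of -0.00724, 0.0698 and -0.112 with Ccl8 and -0.205, 0.0652 and -0.0976 with Folr2. With Cbr2 they were -0.12, -0.0744 and -0.193, so the fall of MHC class II was weak or absent across single cells. These are descriptions over the 391, 284 and 302 members with at least 5000 UMIs, which share a library.

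**Figure D2:**
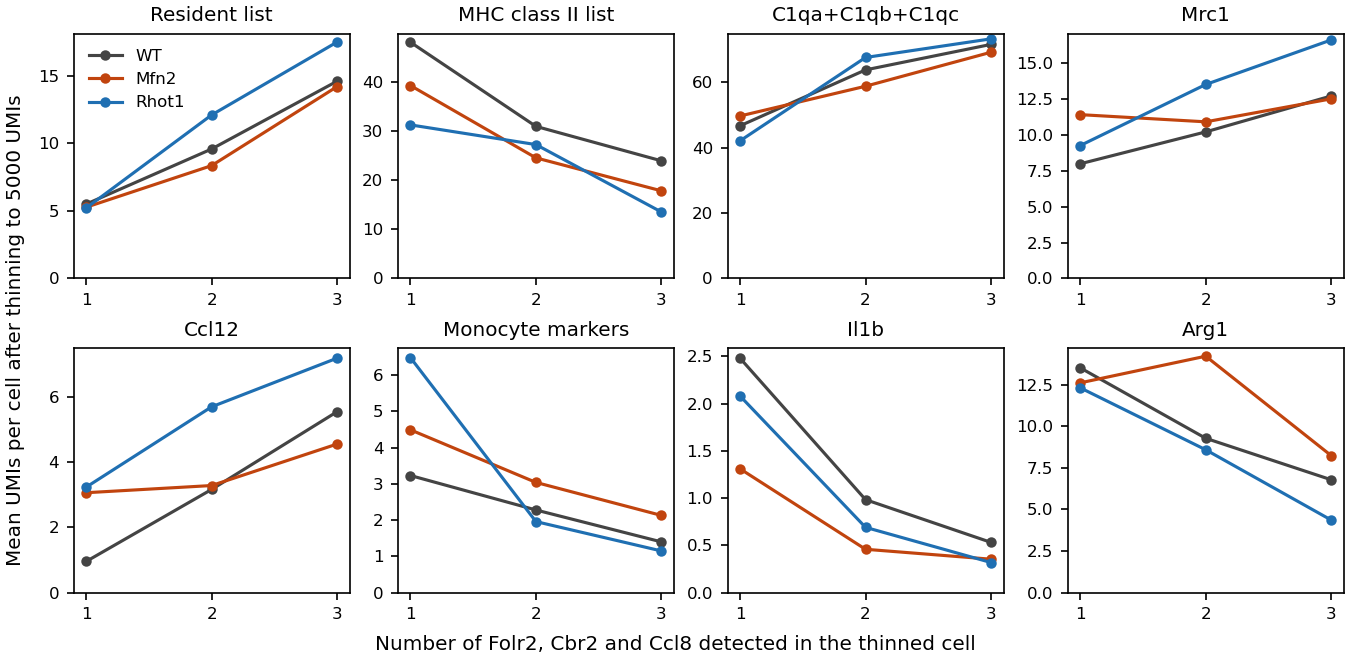
Mean UMIs per member, thinned to 5000 UMIs, against the number of Folr2, Cbr2 and Ccl8 detected, for each library. The panel titled Resident list is the sum of Lyve1, Gas6, Fcna, Fcgrt and Selenop. That sum and C1q climb and MHC class II, monocyte markers and Il1b go down from 1 to 3 genes in all 3 libraries.

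Set beside the other C1q macrophages of the same library, members held more RNA of many genes of the resident macrophage list and less RNA of monocyte markers. Of 5700 genes measured, 43 (0.754%) were at least 2-fold higher in all 3 libraries and 48 (0.842%) at least 2-fold lower. With the rule applied after thinning to 5000 UMIs the lower genes numbered 14, and with means of per-cell CPM the higher genes numbered 25. Of 28 measured genes of the resident list (36 genes without those of the rule), 13 were among the higher and 0 among the lower. The median log2 ratio of that list was 1.5, 1.03 and 1.43 in WT, Mfn2 and Rhot1, against 0.02, -0.03 and 0.00 for all genes. Members were chosen by RNA of the same cells, so these counts describe the class and do not test it.

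Lyve1 was 45.4-fold (12.5 to 376.0) higher in WT members, on 2 UMIs in the other cells, 9.93-fold (4.97 to 23.2) in Mfn2 and 14.3-fold (6.52 to 39.3) in Rhot1. Gas6, which bridges dying cells to TAM receptors, stood at 189.2, 146.6 and 267.5 CPM in members and 23.9, 21.0 and 33.0 CPM in the other cells. The neonatal Fc receptor gene Fcgrt was 5.13-, 5.14- and 5.95-fold higher, a ratio that hardly moved between libraries. Fcna, which encodes the lectin ficolin-A, was 7.16-, 5.03- and 6.48-fold higher. Selenop (a selenium carrier) was among the most abundant of the 43, at 1288, 1290 and 1586 CPM against 330.5, 312.9 and 395.4. Cd163, the receptor for haemoglobin bound to haptoglobin, was 12.7-fold (4.88 to 47.0), 3.79-fold (2.54 to 5.88) and 19.6-fold (7.58 to 72.3) higher. These ratios rest on 4, 26 and 4 Cd163 UMIs in the other cells. Stab1, a scavenger receptor, stood at 565.1, 652.0 and 855.6 CPM against 152.2, 270.8 and 213.5. The 15 highest genes also held Npl, Pmp22, Ednrb, C4b, Timp2, Cela1, Saa3, Hpgds and Wfdc17. Of the apolipoprotein gene Apoe, members held 12190, 12690 and 13500 CPM against 4945, 5968 and 4800.

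The lower genes were led by monocyte and inflammatory RNAs. Plac8 stood at 16.7, 34.9 and 27.1 CPM in members against 279.4, 175.6 and 266.5 CPM in the other cells. Ly6c2 was at 5.85, 17.4 and 18.7 CPM against 64.7, 100.2 and 126.1, and Ccr2, the receptor that brings monocytes out of the marrow, at 127.5, 161.7 and 151.6 against 531.5, 596.1 and 607.5. Of 10 measured monocyte markers, 9 were called lower and 0 higher. Il1b was 0.149-, 0.231- and 0.159-fold the level of the other cells. MHC class II was lower too, with medians of -1.17, -0.96 and -1.30 over 7 genes. Of these 7, H2-Ab1 and H2-DMb1 passed 2-fold in all 3 libraries. Of scavenger and endocytosis genes, 4 of 13 were called higher and 0 lower. Fewer were called among genes of complement other than C1q (1 of 8 higher), lysosomes (1 of 24), Fc receptors (1 of 6) and MHC class I (0 of 15).

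**Figure D3:**
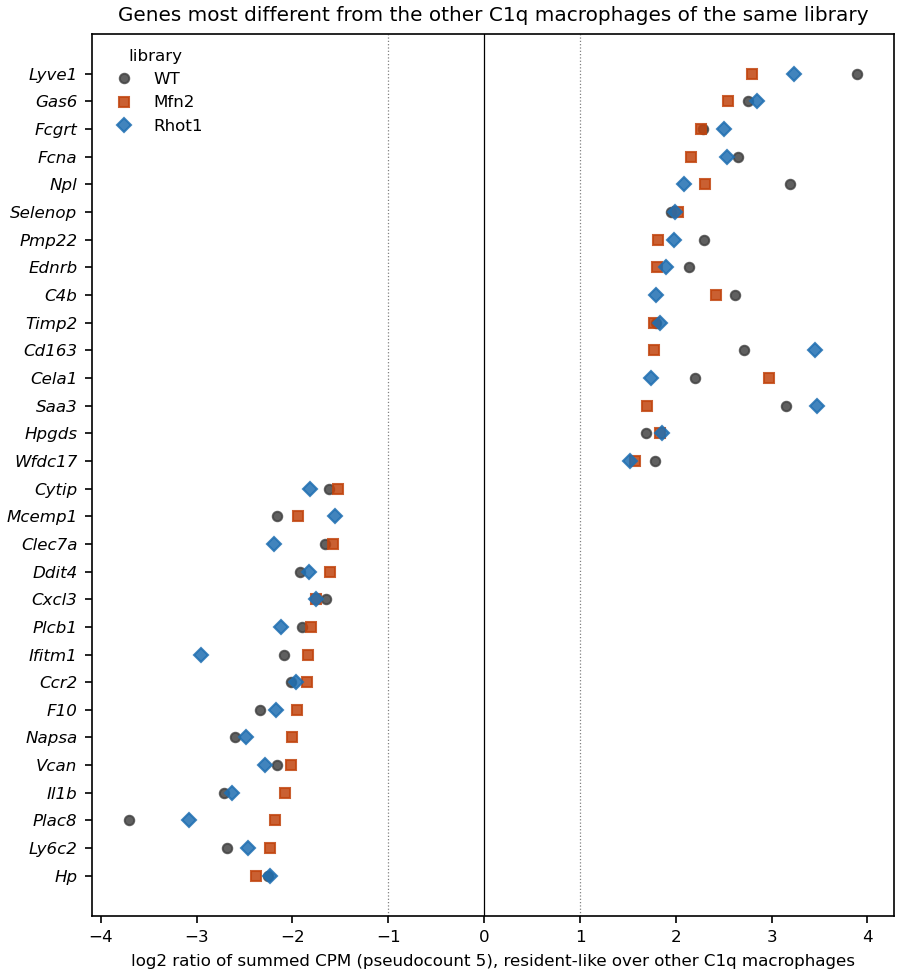
Log2 ratio of summed CPM, members over the other C1q macrophages of the same library, for the 15 highest and 15 lowest genes; each symbol is 1 library and dotted lines mark 2-fold. All symbols of a gene lie on the same side of the dotted line, and Plac8, Cd163 and Saa3 spread most between libraries.

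Markers of other cell types differed in level between lists and libraries. Summed levels of the T cell, NK cell, B cell, mast cell and bone cell lists lay between 0.334 and 8.02 CPM. Osteocyte RNA was thus nearly absent, with 6 of 8 bone genes at 0 in every library. Tumour markers summed to 197.4, 219.3 and 208.7 CPM, of which Krt8 and Krt18 are limited by the rule. Neutrophil markers summed to 433.5, 1007 and 1053 CPM over 10 genes, and none was at 0. Haemoglobin and other erythroid genes summed to 11.2, 618.5 and 27.7 CPM, so the Mfn2 members stood apart in that list. Stroma markers summed to 189.9, 93.2 and 83.5 CPM. Monocyte markers summed to 425.6, 667.1 and 530.0 CPM, against 1977, 2561 and 2197 CPM in the other C1q macrophages. Osteoclast markers summed to 241.5, 182.8 and 181.0 CPM, with 3 of 10 genes at 0 in each library. The part of these RNAs in the differences between genotypes below was not tested.

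Each pool held members from hosts of both sexes. Xist, the RNA of the inactive X chromosome, without RNA of the Y-linked genes Ddx3y, Eif2s3y, Kdm5d or Uty was found in 122, 184 and 158 members of the WT, Mfn2 and Rhot1 libraries. The Y-linked RNAs without Xist were found in 231, 182 and 174 members, both in 5, 8 and 7, and neither in 239, 176 and 169. Keratin-rich carcinoma cells also carried Y-linked RNA, at 54.9, 74.8 and 71.2 CPM against 88.7, 87.2 and 93.2 CPM in all members, but 3.94%, 4.17% and 4.24% of members with Xist held a Y-linked UMI. The 2 sets therefore come from different mice of a pool, although the number of mice behind each is not known from the labels, and sex and animal cannot be told apart. The sets were defined after the data had been seen. Of members in either set, 34.6% were Xist-positive in WT, 50.3% in Mfn2 and 47.6% in Rhot1. Ratios of whole libraries over WT therefore also compare different mixes of the 2 sets, and the part of this mix was not tested. Median depths were 7311, 5539.5 and 5248 UMIs in Xist-positive and 6528, 5248 and 6416 UMIs in Y-positive members.

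Within a library the 2 sets differed in about as many genes as the genotypes did at matched set. Y-positive over Xist-positive members gave 677 of 5668 genes (11.9%) past 1.5-fold in WT, 504 (8.89%) in Mfn2 and 389 (6.86%) in Rhot1. Higher in Y-positive cells were 5.70%, 3.55% and 3.37% of genes and lower were 6.25%, 5.35% and 3.49%. Between libraries, at matched set, Mfn2 over WT gave 642 genes (11.3%) in Xist-positive and 354 (6.25%) in Y-positive members, and Rhot1 over WT gave 570 (10.1%) and 354 (6.25%). In Mfn2, 6.46% of genes were higher and 4.87% lower in Xist-positive cells, and 2.79% and 3.46% in Y-positive cells. In Rhot1 these shares were 5.45% and 4.60%, and 3.69% and 2.56%. Small sets add counting error, so these counts are above those of whole libraries. They are set side by side here because the mice within a library share genotype, sort and preparation.

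MHC class II was lower in Y-positive than in Xist-positive members of every library. In Y-positive members the list summed to 4674, 999 and 2445 CPM in WT, Mfn2 and Rhot1, and in Xist-positive members to 8601, 9433 and 6507 CPM. All 3 Y-positive sums lay below all 3 Xist-positive sums. H2-Eb1, a beta chain of the class II dimer, stood at 484.7 against 897.2 CPM in WT, 64.9 against 937.4 in Mfn2 and 233.9 against 634.4 in Rhot1. Cd74, the invariant chain, stood at 2591 against 4893, 583.2 against 5458 and 1361 against 3753 CPM. Ciita, the activator of class II genes, followed with 14.0 against 34.5, 3.76 against 41.7 and 8.54 against 25.6 CPM. Of 6 measured class II genes, 4, 6 and 5 were past 1.5-fold lower in Y-positive cells and 0 higher. The same order was seen in the other C1q macrophages, where Y-positive cells held 11700, 5381 and 8660 CPM and Xist-positive cells 16720, 13570 and 11700. MHC class I went the same way with smaller ratios, with 4, 7 and 3 of 15 genes past 1.5-fold lower and 0 higher. Interferon-stimulated genes did so too, with 4, 9 and 6 of 21 lower and 0 higher, and sums of 5318, 4791 and 5031 CPM in Y-positive against 6008, 7529 and 6169 CPM in Xist-positive members.

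Hypoxia, glycolysis and stress RNA set apart 1 of the 6 sets, the Xist-positive members of WT. The hypoxia list summed to 527.0 CPM there and to 1138 in Y-positive WT members, and to 988.8, 856.0, 876.3 and 711.9 CPM in the Xist- and Y-positive members of Mfn2 and then of Rhot1. Vegfa, the vascular growth factor, stood at 14.4 CPM in Xist-positive and 90.6 CPM in Y-positive WT members. Immediate-early and heat-shock genes, which also respond to tissue dissociation, summed to 4942 and 8739 CPM in WT, 7921 and 6852 in Mfn2 and 6630 and 6362 in Rhot1. Arg1, the arginase of hypoxic tumour macrophages, stood at 683.7 and 1955 CPM in WT, 2649 and 1983 in Mfn2 and 2325 and 1102 in Rhot1. The pattern was not particular to members. Among the other C1q macrophages, Xist-positive WT cells were also lowest, with a hypoxia sum of 831.0 CPM against 1152 to 1568 in the remaining sets. Their glycolysis sum was 9781 CPM against 12070 to 13350, and their stress sum 7221 against 8141 to 13900. Low values in Xist-positive WT members enter every ratio of Xist-positive members over WT.

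**Figure D4:**
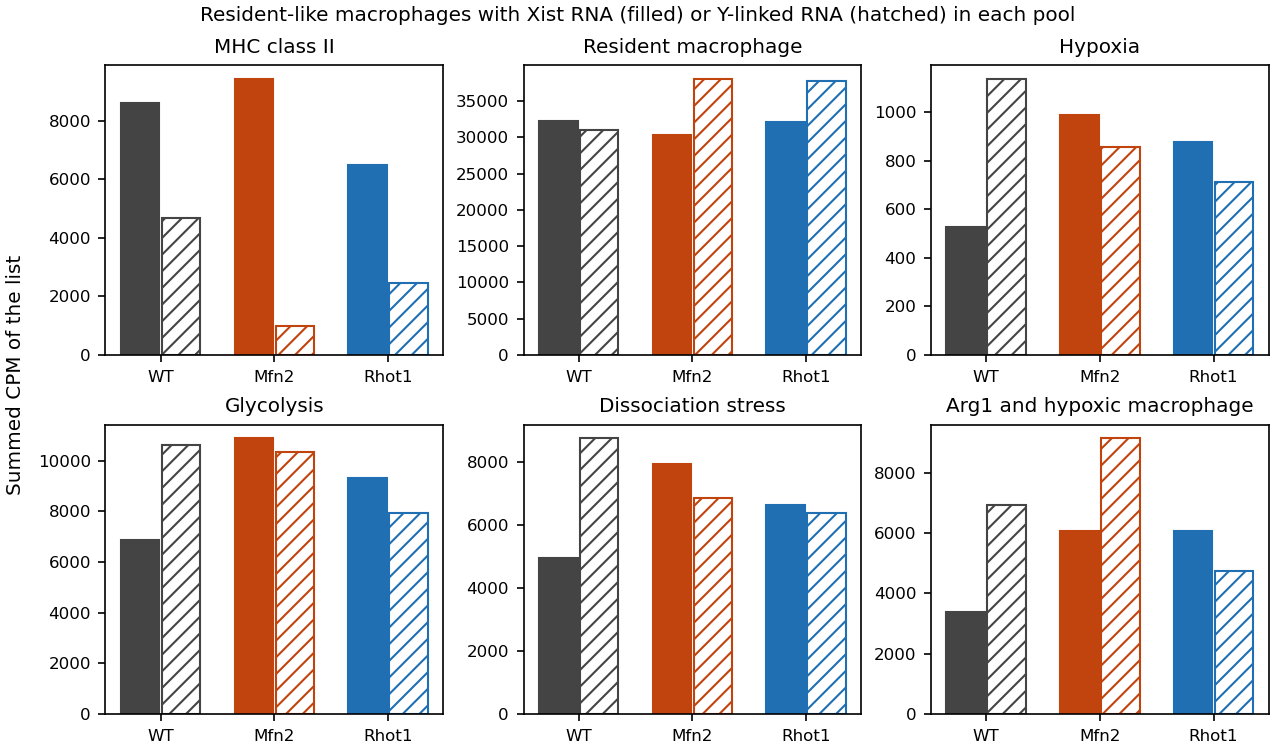
Summed CPM of 6 gene lists in Xist-positive (filled) and Y-positive (hatched) members of each library. MHC class II is lower in the hatched bar of every library, and hypoxia, glycolysis and dissociation stress are lowest in the filled WT bar.

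Members made up 6.42% (5.93 to 6.94) of kept cells in WT, 5.57% (5.13 to 6.04) in Mfn2 and 5.43% (4.98 to 5.91) in Rhot1. The ratios over WT were 0.868 (0.776 to 0.971) and 0.845 (0.753 to 0.948). Of all C1q cells that met the other limits, they made up 70.8% (67.6 to 73.9), 68.9% (65.6 to 72.1) and 70.6% (67.1 to 73.9), with ratios of 0.973 (0.913 to 1.04) and 0.996 (0.934 to 1.06). A share of kept cells depends on every other class in the tumour and on the sort. The limit on Mki67+Top2a alone left out 97, 63 and 138 cells. Thus 14.0% (11.5 to 16.8), 10.3% (7.99 to 13) and 21.4% (18.3 to 24.7) of cells that met all other limits held more than 1 Mki67+Top2a UMI. In both sets of mice that share was lowest in Mfn2 and highest in Rhot1, at 19.7%, 12.8% and 21.4% in Xist-positive and 15.7%, 9.0% and 26.6% in Y-positive cells of WT, Mfn2 and Rhot1. In Xist-positive cells WT and Rhot1 were close, at 30 of 152 and 43 of 201 cells. The limit is a count of UMIs, which a deep cell exceeds more easily. Cells it left out had medians of 9570, 7647 and 8181.5 UMIs, above those of members, which were lowest in Mfn2. The part of depth in this order was not tested.

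Mfn2 members differed from WT members in few genes. Of 5671 genes measured, 48 (0.846%) were at least 1.5-fold higher and 57 (1.01%) at least 1.5-fold lower, with a median log2 ratio of 0.01 over all genes. Of the 48, 45 were higher in both sets of mice and 24 past 1.5-fold in both. Of the 57, 41 were lower in both and 21 past 1.5-fold in both. Cells of both sets are among the pooled members that gave the calls, so agreement with a call is partly built in. In the other C1q macrophages, 26 of the 48 and 23 of the 57 were also past 1.5-fold the same way. Hmox1, Ppbp, Vcan, Cd83 and Mgl2 were among them, so these differences were not particular to members. Cxcl9, Tmem176b and Mmp13, lower in Mfn2 members, went the other way there. How many of all genes passed 1.5-fold there was not counted.

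The genes that held in both sets included Cd163, Vcan and Ppbp among the higher. Cd163 stood at 57.6 CPM in WT and 121.7 CPM in Mfn2 members, 2.11-fold (1.78 to 2.51), and at 33.4 against 81.5 CPM in Xist-positive and 69.5 against 146.7 CPM in Y-positive cells. Hmox1, the enzyme that breaks down haem, went from 1372 to 2518 CPM, 1.84-fold (1.77 to 1.90), with log2 ratios of 0.40 in Xist-positive and 0.96 in Y-positive cells. Ferritin genes Fth1 and Ftl1 stood at 14190 and 7170 CPM in WT and 17350 and 9207 CPM in Mfn2, and the haem transporter gene Slc48a1 at 90.6 and 135.2 CPM. Of 14 haem and iron genes, Hmox1, Cd163 and Lcn2 passed 1.5-fold higher and 0 lower. The haemoglobin RNA given above was higher in the same cells, with Hbb-bs at 5.05 CPM in WT and 356.2 in Mfn2 members, and 591 of its 1062 UMIs in Mfn2 came from 1 cell. In Xist-positive cells it was at 8.89 and 387.2 CPM and in Y-positive cells at 3.19 and 34.8 CPM. Its part in the Hmox1 difference was not tested.

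Vcan, a matrix proteoglycan of monocytes, was at 87.9 and 154.6 CPM, and past 1.5-fold in both sets. The monocyte marker list was higher with it, summing to 425.6 CPM in WT and 667.1 CPM in Mfn2 members, with 4 of 6 genes called higher, 0 lower and a median log2 ratio of 0.70. That median was 1.23 in Xist-positive and 0.47 in Y-positive cells, and the part of monocyte RNA in the other Mfn2 differences was not tested. Ppbp, a CXC chemokine of platelets and myeloid cells, was at 251.1 and 620.4 CPM, with log2 ratios of 2.06 and 1.02 in the 2 sets. Jaml, an adhesion molecule of leukocytes, was at 17.3 and 65.1 CPM and differed mainly in Y-positive cells, by 2.56 on the log2 scale against 0.28. Saa3, an acute-phase protein, was at 90.1 and 453.1 CPM, but 269 of its 1351 UMIs in Mfn2 came from 1 cell, and in WT it was at 5.56 CPM in Xist-positive and 116.7 in Y-positive cells. The neutrophil genes S100a8 and S100a9 went from 190.7 to 440.0 and from 160.7 to 405.5 CPM beside the higher neutrophil sum, and F7, Retnlg, Ifi209 and Ms4a4c completed the 12 highest.

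Cd83 had the lowest ratio among the called genes at 50 CPM or more. Its protein keeps MHC class II at the surface, and its RNA stood at 55.0 and 15.4 CPM, with log2 ratios of -0.66 and -2.89 in the Xist- and Y-positive sets. Mgl2, a C-type lectin, stood at 143.7 and 62.7 CPM, with -1.04 and -2.36. Ltc4s, the leukotriene C4 synthase, stood at 84.8 and 37.9 CPM, with -0.93 and -0.99, and was lower in the other C1q macrophages too, at -1.15. Fcrls, an Fc receptor-like gene, stood at 116.4 and 47.6 CPM, with -2.25 and -0.93. Tmem176b and Acp5, at 98.0 against 46.9 and 59.0 against 29.5 CPM, passed 1.5-fold in both sets. Cxcl1 and Cxcl9, ligands for neutrophils and T cells, stood at 90.1 against 33.5 and 177.7 against 81.8 CPM and were past 1.5-fold lower in both sets. Mmp13, Tgm2 and Hspa1b were also among the 12 lowest and went the other way in Xist-positive cells. Rgs2, at 101.0 and 51.3 CPM, was lower in both sets.

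The MHC class II list had a median log2 ratio of -0.53 in Mfn2 over WT, with 1 of 6 genes called lower and 0 higher. It split between the sets, at 0.11 in Xist-positive and -2.18 in Y-positive cells. Inflammatory genes of the NF-kB list had a median of -0.33 with 3 of 16 lower, Il1b standing at 243.1 and 134.8 CPM, and their medians were 0.02 and -0.59 in the 2 sets.

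Rhot1 members differed from WT members in about as many genes, of which fewer held in both sets of mice. Of the 5671 genes, 49 (0.864%) were higher and 48 (0.846%) lower, and the median over all genes was 0.06. Of the 49, 41 were higher in both sets and 12 past 1.5-fold in both. Of the 48, 22 were lower in both and 6 past 1.5-fold in both. Here too the sets are part of the pool that gave the calls. In the other C1q macrophages, 14 of the 49 and 20 of the 48 were also past 1.5-fold the same way. Both genotype comparisons share the WT library, so a gene that is off in WT appears in each.

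Monocyte-attracting chemokines were highest in Rhot1 members. Ccl8 stood at 4182, 3629 and 7293 CPM in WT, Mfn2 and Rhot1, but it is a gene of the rule. Ccl12, its neighbour on chromosome 11, stood at 768.3, 629.2 and 1198 CPM, 1.56-fold (1.48 to 1.64) higher in Rhot1. Both were higher only in the Y-positive set, with Ccl12 at 760.9 against 1607 CPM, and lower in the Xist-positive set, at 1001 against 845.1. Ccl2 stood at 1485, 1439 and 2046 CPM and Ccl7 at 1402, 1486 and 2002, and neither passed 1.5-fold. Their log2 ratios in Rhot1 were 0.61 and 0.40 in Xist-positive and 0.45 and 0.50 in Y-positive cells. Of 9 CC chemokines measured, 1 was called higher and 0 lower, with a median of 0.46. The difference was not particular to members. In the other C1q macrophages that median was 0.775, and Ccl12 stood at 163.5, 312.9 and 447.0 CPM in WT, Mfn2 and Rhot1. Ccl5 was carried by few cells, with 255 of 424 UMIs in 1 WT cell.

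Fpr1, a formyl peptide receptor, stood at 22.3 CPM in WT and 51.4 CPM in Rhot1 members, with log2 ratios of 1.24 and 0.93 in the Xist- and Y-positive sets. Cd163, Fcrls and C4b were higher in the pool and lower in Xist-positive cells, with log2 ratios of -0.43, -0.57 and -0.33 there against 1.13, 1.30 and 1.18 in Y-positive cells. Lifr, Stard8 and Rnf150 differed by 0.83, 0.94 and 0.83 in Y-positive cells and by 0.12, 0.00 and 0.13 in Xist-positive cells. S100a9 and S100a8 led the list, but 882 of 1335 and 759 of 1217 of their UMIs came from 1 Rhot1 cell each, and without the top cell of each library their log2 ratios were 0.51 and 0.40 in place of 1.44 and 1.07. Ppbp and Ms4a4c completed the higher genes.

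Ltc4s was again lower, at 84.8 CPM in WT and 36.7 CPM in Rhot1, with log2 ratios of -0.55 and -1.03 in the 2 sets. Cd83 stood at 55.0 and 26.4 CPM, with -0.54 and -1.05. The other 10 of the 12 lowest genes had log2 ratios above 0 in Xist-positive cells and below 0 in Y-positive cells. The heat-shock gene Hspa1a stood at 345.6 and 156.6 CPM in the pools, at 62.3 and 129.3 in Xist-positive and at 390.3 and 134.9 in Y-positive cells. Rgcc, Hspa1b, Tgm2, Lyz1 and Mxi1 turned in the same way. Adgre5, Ankrd37, Cytip and Fn1 were lower in Y-positive cells with log2 ratios of -2.14, -1.2, -1.43 and -1.24, and at 0.48, 0.05, 0.00 and 0.24 in Xist-positive cells. The hypoxia list had a pooled median of -0.50 with 4 of 11 genes called lower and 0 higher. Its median was 0.79 in the Xist-positive and -0.75 in the Y-positive set. MHC class II had a pooled median of -0.63 with 4 of 6 lower, and was lower in both sets, at -0.38 and -0.98.

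**Figure D5:**
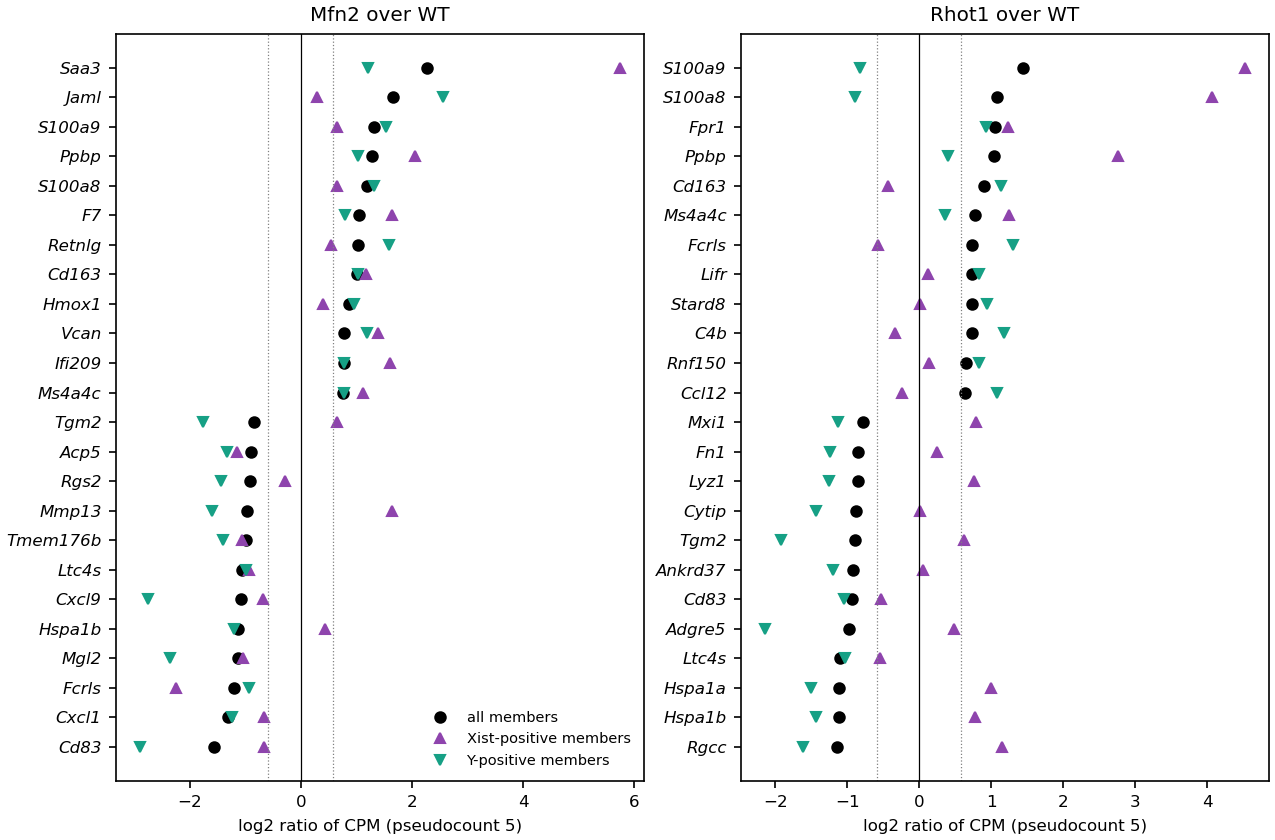
Log2 ratio of CPM over WT for the 12 highest and 12 lowest genes of each knockout library, for all members (circles), Xist-positive members (upward triangles) and Y-positive members (downward triangles); dotted lines mark 1.5-fold. Cd163 and Ltc4s lie together in the Mfn2 panel, whereas most lower genes of the Rhot1 panel have triangles on opposite sides of 0.

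Few genes of the lists for macrophage functions were called between whole libraries. The resident list had medians of 0.01 in Mfn2, with 1 of 29 genes higher and 2 lower, and 0.28 in Rhot1, with 2 higher and 2 lower. It was not the same in both sets of mice. In Mfn2 the median was -0.35 in Xist-positive cells, with 2 genes higher and 10 lower, and 0.04 in Y-positive cells, with 3 higher and 3 lower. In Rhot1 it was -0.30 in Xist-positive cells, with 1 higher and 6 lower, and 0.41 in Y-positive cells, with 8 higher and 3 lower. Lysosomal genes had 0 of 24 called either way in both comparisons and medians of 0.08 and 0.10. Fc receptors had 0 of 6 called, and of 11 efferocytosis genes 0 were called in Mfn2, while Mertk and Stab1 were called higher in Rhot1. Mertk, a receptor for dying cells, stood at 41.7, 63.4 and 66.8 CPM and Stab1 at 565.1, 652.0 and 855.6 CPM. Lipid-handling genes had 0 of 19 called in Mfn2 and 2 lower in Rhot1, with Trem2 at 467.3, 494.0 and 471.6 CPM. Interferon-stimulated genes outside the rule had medians of 0.09 and 0.13 over 21 genes.

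Of 11 measured mitochondrially encoded genes, 0 were called in Mfn2 and 2 were called higher in Rhot1. All 13 genes of the list summed to 7041 CPM in WT, 8751 in Mfn2 and 9916 in Rhot1 members, with median log2 ratios of 0.21 and 0.42. The other C1q macrophages had the same order, at 6204, 7669 and 8329 CPM. In Xist-positive members the sums were 8364, 9572 and 9627 CPM and in Y-positive members 6649, 8215 and 10040. The highest, mt-Cytb, stood at 2253, 2950 and 3365 CPM. The share of mitochondrial UMIs is also used to filter cells and follows RNA quality, and the part of quality was not tested.

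The targeted genes stood near the 20 CPM filter in these cells. The mean of Mfn2 RNA lay under it, so that gene could not be called, and Rhot1 RNA passed no fold. Mfn2 stood at 14.6, 16.8 and 22.0 CPM and Rhot1 at 24.7, 25.8 and 23.7 CPM in WT, Mfn2 and Rhot1 members. A 3' tag does not check a deletion elsewhere in the gene, and Dmp1-Cre is not meant to act in macrophages. Of 7 measured genes of mitochondrial fusion, fission and transport, 0 were called in either comparison, with Opa1 at 29.5, 34.9 and 29.4 CPM and Dnm1l at 49.4, 47.6 and 55.4 CPM.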

How the data were processed

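Tumour cells of 3 pools were measured by droplet 3' single-cell RNA sequencing. The deposited values are raw UMI counts per gene and cell, made with Cell Ranger 7.0.0 per the file headers, with the build mm10 named in the submitters' processing notes. Which gene annotation was used, and whether introns were counted, is not given in the sources used here. The members, gene lists and tests were chosen with earlier results of these data known. Member counts were summed per library and divided by the members' total to give counts per 1000000 UMIs (CPM). Before log2 ratios were taken, 5 CPM was added to each value, which understates low genes. A gene was measured where its mean over libraries reached 20 CPM, genes of the rule left out, and called at 1.5-fold between genotypes or 2-fold, in all 3 libraries, against the other C1q macrophages. Count ratios have exact conditional, shares exact Clopper-Pearson and levels exact Poisson 95% intervals. Members per library held 2981710 to 3764188 UMIs. No test across samples was possible with 1 library per group.

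Named were the genes of the rule, any member of the resident, MHC class II, CC chemokine and targeted lists, up to 3 highest, 3 lowest and 3 most abundant of other lists, 12 highest and 12 lowest called genes per genotype comparison and 15 against the other cells, at 50 CPM or more, without mitochondrial, ribosomal, haemoglobin, immunoglobulin and unnamed genes. Genes at under 25% of their level over all kept cells were left out of these rankings. Slc48a1, Trem2, Xist and the Y-linked genes fall outside the rule and were picked after their values were seen. Scrublet, run in scanpy 1.11.5, marked doublets, which were kept in the main values. Gene positions were looked up in GENCODE M21, which held 52081 of 55357 gene IDs (94.1%). Python 3.11.15, numpy 2.4.6, scipy 1.17.1, pandas 2.3.3 and matplotlib 3.10.9 were used, and the steps were tested on simulated data. Other limits, thinning to 5000 UMIs, pseudocounts, filters and scalings were tried, and 2 sets of mice were added after seeing the data.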

Additional observations from a re-analysis of the deposited data

Results flagged for a closer look

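Several ratios over WT went opposite ways in Xist-positive and Y-positive members, which come from different mice of a pool. Each difference is given as the Xist-positive minus the Y-positive log2 ratio. None of these differences was tested, since each set is 1 sample per genotype.

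In Mfn2 over WT, Mmp13, a collagenase, differed by 3.22 between the sets (1.63 and -1.59). Tgm2, a transglutaminase, differed by 2.40 (0.65 and -1.75). The medians of 3 lists differed too, by 1.33 for arginine and hypoxic macrophage genes (1.00 and -0.33), 1.08 for hypoxia (0.73 and -0.35) and 0.854 for dissociation stress (0.49 and -0.36).

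In Rhot1 over WT, S100a9 and S100a8 differed by 5.34 (4.52 and -0.82) and 4.96 (4.07 and -0.89), and most of their Rhot1 UMIs lay in 1 cell. The heat-shock genes Hspa1a and Hspa1b differed by 2.50 (1.00 and -1.50) and 2.22 (0.78 and -1.44). Rgcc differed by 2.76 (1.15 and -1.61), and Tgm2 by 2.54 (0.62 and -1.92). Lyz1 differed by 2.02 (0.76 and -1.26) and Mxi1 by 1.92 (0.79 and -1.13). List medians differed by 1.84 for arginine and hypoxic macrophage genes (1.11 and -0.73), 1.54 for hypoxia (0.79 and -0.75) and 1.09 for matrix and protease genes (0.54 and -0.55). They differed by 0.991 for glycolysis (0.53 and -0.47) and 0.857 for dissociation stress (0.40 and -0.45). The Xist-positive WT members, whose hypoxia and stress sums were the lowest of the 6 sets, are the denominator of every Xist-positive ratio here.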

How the results depend on the processing

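No paired analysis was possible because each genotype is 1 library with no replicate number. Leaving out a library was likewise not possible. Under the other limits, filters and scalings, 531 values of single genes stayed within their counting spread and 45 moved, and of list medians 640 stayed, 125 moved and 1 reversed. The Xist-positive and Y-positive sets were chosen after seeing the data, and the cause of each change was not tested except that a smaller set holds fewer counts.

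The log2 ratio of the members' share of kept cells, -0.205 in Mfn2 and -0.243 in Rhot1, was -0.568 and -0.425 with the rule applied after thinning to 5000 UMIs. Genes higher in Mfn2 (48) numbered 78 with a pseudocount of 1, 167 without the filter, 349 in Xist-positive and 166 in Y-positive cells, and lower ones (57) 175, 313 and 185 under the last 3. Genes higher in Rhot1 (49) numbered 76, 195, 304 and 219 under those 4, 26 with median-ratio size factors and 74 as means of per-cell CPM, and lower ones (48) 129, 289 and 137 without the filter and in the 2 sets. Against the other cells, 43 higher genes became 25 as per-cell means and 48 lower genes 14 after thinning.

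The MHC class II median in Mfn2, -0.53, was -0.57 with a Krt limit of 1, -0.37 after thinning, -0.48 without the filter, 0.12 in Xist-positive and -2.18 in Y-positive cells. In Rhot1, -0.63, it was -0.70 with 3 UMIs of Folr2+Cbr2+Ccl8, -0.69 with C1q of 40, -1.04 after thinning, -0.56 without the filter, -0.69 with median-ratio factors, and -0.38 and -0.98 in the sets. The hypoxia median in Mfn2, -0.09, was 0.00618 with 3 UMIs of the 3 genes, -0.0134 after thinning, -0.19 per cell, and 0.73 and -0.35 in the sets. In Rhot1, -0.50, it was -0.59 with the Krt limit, -0.42, -0.33 and -0.41 under the same 3, and 0.79 and -0.75 in the sets.

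Reversed in Xist-positive cells of Mfn2 were the NF-kB median (0.00886), Hspa1b (0.43), Mmp13 (1.63) and Tgm2 (0.65), and the osteoclast marker median was 0.0066 with 3 UMIs of the 3 genes. Reversed in those of Rhot1 were the arginine list (1.11), Cd163 (-0.43), Fcrls (-0.57), C4b (-0.33), Ccl12 (-0.24), Rgcc (1.15), Hspa1b (0.78), Hspa1a (1.00), Adgre5 (0.48), Ankrd37 (0.046), Tgm2 (0.62), Cytip (0.00347), Lyz1 (0.76), Fn1 (0.24) and Mxi1 (0.79). Reversed in Y-positive cells of Rhot1 were the neutrophil median (-0.82), S100a9 (-0.82) and S100a8 (-0.89). Depth limits genes under the 20 CPM filter, Timd4 and Cd209f among them.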
